A study of Mus musculus with 4 samples.

Results

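Astrocytes wrap brain vessels with endfeet, flattened processes whose vessel-facing membrane carries water and ion channels. Dystroglycan, a receptor for laminin and other basement membrane proteins, spans that membrane, and dystrophin or its homologue utrophin links it to the actin cytoskeleton inside the cell. Dystrobrevins and syntrophins join the same complex, and syntrophin tethers the water channel aquaporin-4 to it. The 9 genes described here are Aqp4, Mlc1 and Hepacam, which encode membrane proteins of the endfoot, Dag1, Dmd, Utrn, Dtna and Sntb1, which encode parts of the dystroglycan complex, and Aldh1l1, a folate enzyme gene used as a general astrocyte marker. They were chosen by gene name among the 46072 genes of the authors' deposited FPKM table (fragment counts divided by transcript length and by the library total), and all 9 were found there.

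Poly(A) RNA was sequenced in 4 libraries, replicates 1 to 4, from wild-type mouse brain vessels with no treatment. The labels call the material endothelial cells cut out by laser capture microdissection, and the series title adds that the brain tissue was fixed by perfusion and that cells were picked by immunolabelling. All 4 libraries form 1 group, so genes were compared with a fixed level or with other genes of the same library. Whether each library came from an animal of its own is not stated, so a p-value here reflects only library-to-library spread, which may be technical.

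Summed FPKM per library ranged from 448678 to 482882, and the read depth is unknown. The 17 pan-endothelial genes summed to 235 to 301 FPKM, and 14 of them were at 1 FPKM or more in every library. These genes covered a wide range: Ly6c1 had 68.2 ± 4.29 FPKM, Ly6a 49.5 ± 4.33 FPKM, Ramp2 41.8 ± 18.7 FPKM and Cldn5, the claudin of brain endothelial tight junctions, 19.0 ± 0.698 FPKM (SD, n = 4). Cdh5 (vascular endothelial cadherin), at 0.878 ± 0.367 FPKM, and Erg, at 0.368 ± 0.123 FPKM, were the 2 lowest of the 17. Genes of other cell types were also measured: 8 neuronal genes summed to 2081 to 2640 FPKM, 8 oligodendrocyte genes to 4868 to 6132 FPKM, and 11 general astrocyte genes to 1399 to 1731 FPKM. The 8 mural genes summed to 155 to 194 FPKM, 7 microglial genes to 138 to 188 FPKM, and 6 choroid plexus and ependymal genes to 11664 to 17138 FPKM, mostly Ttr. No gene of these 7 lists was listed at 0 in all 4 libraries. In bulk RNA of this kind, more cells of a type and more RNA per cell cannot be told apart, and the cells that the RNA of the 9 genes came from were not tested.

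All 9 genes were above 0 in every library, and their order by level was nearly the same in each (see the plot of FPKM by gene and library). From high to low by mean FPKM the order was Mlc1, Aqp4, Hepacam, Aldh1l1, Dtna, Dag1, Dmd, Utrn and Sntb1. The upper 4 and the last 2 places were the same in 4 of 4 libraries, and Dtna, Dag1 and Dmd changed places among themselves. Mlc1, Aqp4 and Hepacam, named above as genes of endfoot membrane proteins, thus stood at the upper end of this set. Dmd, Utrn and Sntb1 stood at the lower end. Dag1, whose protein also spans the membrane, came below Dtna by mean. Dmd and Utrn also have the longest transcripts of the 9, of 14910 and 12382 bases. Sntb1, the lowest gene, has at most 4919 bases, near the 5054 of Aqp4. The part of transcript length in this order was not tested.

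**Figure D1:**
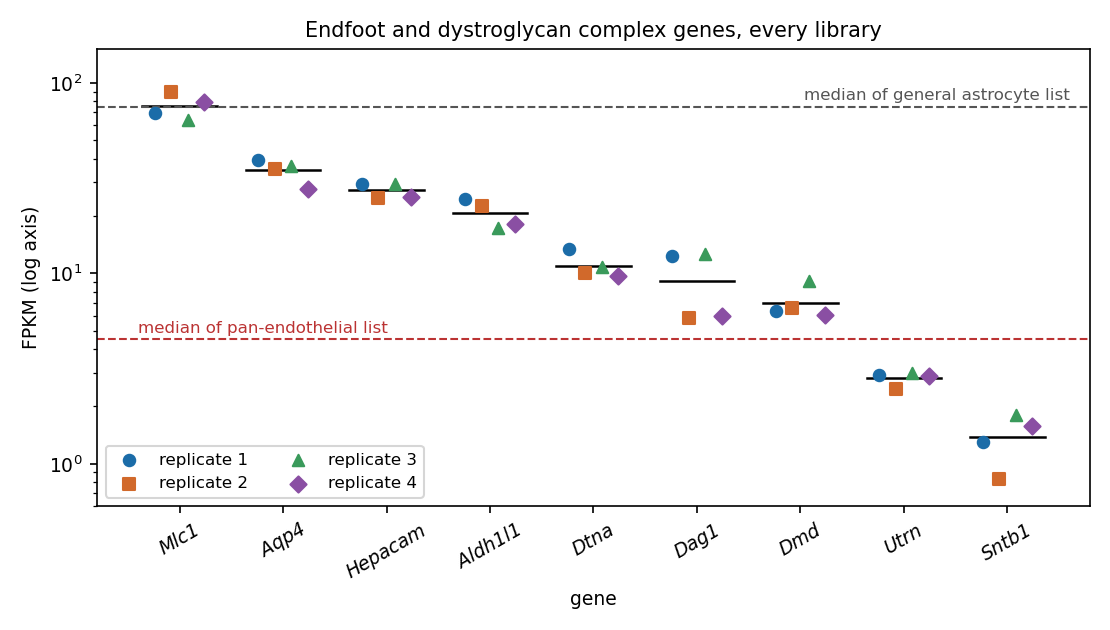
FPKM (log axis) of each of the 9 genes in replicates 1 to 4, with a bar at the mean; dashed lines mark the mean over libraries of the general astrocyte and the pan-endothelial list medians. Mlc1 lies around the astrocyte line, Utrn and Sntb1 lie below the endothelial line, and the Dag1 points fall apart into 12.3 and 12.6 FPKM against 5.82 and 5.98 FPKM.

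Mlc1 encodes a membrane protein of astrocyte junctions and endfeet, and its loss in people causes a leukoencephalopathy with an enlarged head. The gene lies on chromosome 15, 88955884 to 88979007 (GRCm38, minus strand), with 12 exons in its longest transcript. Mlc1 had 69.8, 89.1, 63.4 and 79.1 FPKM in replicates 1 to 4. Replicate 2 was the highest and replicate 3 the lowest, and even the lowest was above every value of the other 8 genes. The mean was 75.3 ± 11.2 FPKM (SD, n = 4), between the 95.2th and 96.3th percentile of the 25206 genes above 0 in any library.

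Hepacam encodes GlialCAM, an adhesion molecule that binds the Mlc1 protein and brings it to cell junctions. The gene lies on chromosome 9, 37367351 to 37386575 (plus strand). Hepacam had 29.6, 24.8, 29.4 and 25.1 FPKM in replicates 1 to 4, a mean of 27.2 ± 2.63 FPKM. Its libraries differed little, with the highest 1.19 times the lowest. Within each library Hepacam stood below its partner, at 0.371 ± 0.0874 times the Mlc1 level, or -1.43 ± 0.34 on the log2(FPKM + 1) scale (SD, n = 4).

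Aqp4 encodes the main water channel of the brain, which is concentrated in endfoot membranes. It lies on chromosome 18, 15389496 to 15410982 (minus strand). Aqp4 had 39.4, 35.4, 36.5 and 27.6 FPKM in replicates 1 to 4, a mean of 34.7 ± 5.07 FPKM. Replicate 4 was the lowest, and it alone was below the highest Hepacam values, so the ranges of the 2 genes overlapped although Aqp4 was higher in 4 of 4 libraries. The 3 genes nearest to Aqp4 in level over the 4 libraries, among the 8362 genes that averaged 5 FPKM or more, were Ip6k1, Zfp207 and Ube2j1, with root mean square differences of 0.070, 0.074 and 0.086 in log2(FPKM + 1). With 4 libraries this likeness is mainly one of level.

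Aldh1l1 encodes an enzyme of the cytosol. It is the only one of the 9 that encodes neither an endfoot membrane protein nor a part of the dystroglycan complex. The gene lies on chromosome 6, 90486427 to 90600203 (plus strand). Aldh1l1 had 24.5, 22.5, 17.3 and 18.2 FPKM in replicates 1 to 4, a mean of 20.7 ± 3.43 FPKM. Replicates 1 and 2 were higher than replicates 3 and 4, an order that none of the other 8 genes had. Exons of Aldh1l1 overlap those of 2 noncoding genes in the annotation, 1 of them antisense. The antisense gene, Gm15756, had a mean of 0 FPKM, and the other, Gm45901, on the same strand, has no value in the authors' table. The Aldh1l1 value may include reads of Gm45901 and, because the strand setting is not stated, of Gm15756.

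Dag1 encodes dystroglycan, made as 1 precursor that is cleaved into an outer subunit that binds matrix and a subunit that spans the membrane. Its position is chromosome 9, 108204634 to 108263958 (minus strand). Dag1 had 12.3, 5.82, 12.6 and 5.98 FPKM in replicates 1 to 4, a mean of 9.16 ± 3.76 FPKM. Replicates 1 and 3 were about equal and well above replicates 2 and 4, with no value between. Its spread, 41.1% of the mean, was at the 98.0th percentile of 4916 genes with a mean within 2-fold of it, which had a median of 15.97%.

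Dmd encodes dystrophin, best known from muscle, whose short product is the main form in endfeet while the long product is found in neurons and smooth muscle. It lies on chromosome X, 82948870 to 85206141 (plus strand), with coding transcripts annotated from 1858 to 14910 bases, and the table gives 1 value for them all. Dmd had 6.34, 6.600, 9.06 and 6.07 FPKM in replicates 1 to 4, a mean of 7.01 ± 1.38 FPKM. Replicate 3 stood above the other 3, which were close together. Which transcript lengths the authors' value rests on is not given in the sources used here, so its level relative to other genes depends on the products present.

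Utrn encodes utrophin, the autosomal homologue of dystrophin, known in brain from vessels and from choroid plexus. Its gene spans chromosome 10, 12382188 to 12869365 (minus strand), with a longest transcript of 12382 bases. Utrn had 2.93, 2.47, 2.998 and 2.88 FPKM in replicates 1 to 4, a mean of 2.82 ± 0.239 FPKM. Its spread of 8.47% of the mean was the smallest of the 9, at the 4.44th percentile of 4754 genes with a mean within 2-fold of it. No value of Utrn reached the lowest value of Dmd, and within a library it stood at 0.410 ± 0.0693 times Dmd.

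Dtna encodes alpha-dystrobrevin, which binds dystrophin and syntrophins. Its gene spans chromosome 18, 23415135 to 23659715 (plus strand), and its exons overlap an antisense gene in the annotation, so with the strand setting not stated some reads may be shared. Dtna had 13.4, 9.98, 10.8 and 9.68 FPKM in replicates 1 to 4, a mean of 11.0 ± 1.70 FPKM. Replicate 1 was the highest. Dtna was above Dag1 in 3 of 4 libraries, with a difference of 0.30 ± 0.42 (SD) on the log2(FPKM + 1) scale that was within the spread between libraries.

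Sntb1 encodes a beta-syntrophin, an adaptor that joins signalling proteins and channels to dystrophin or utrophin. Its gene spans chromosome 15, 55636388 to 55906949 (minus strand). Sntb1 had 1.31, 0.836, 1.81 and 1.58 FPKM in replicates 1 to 4, a mean of 1.38 ± 0.419 FPKM. Only replicate 2 was under 1 FPKM, and every value was below every value of Utrn. It was the lowest of the 9 genes in each library, between the 45.01th and 51.99th percentile of genes above 0.

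Replicates 1 and 3 were both above replicates 2 and 4 for 5 of the 9 genes: Aqp4, Dag1, Dtna, Hepacam and Utrn. The opposite order held for Mlc1. Among the 13654 genes that averaged 1 FPKM or more, 23.5% had the first order and 21.1% the second, so both were common across the table. A gap as wide as that of Dag1 was not: its lower value in replicates 1 and 3 was 2.05 times its higher value in replicates 2 and 4, and 96 of the 8362 genes that averaged 5 FPKM or more had a ratio above 1.5. The summed neuronal genes had the order of Mlc1, with 2223 and 2081 FPKM in replicates 1 and 3 and 2640 and 2244 FPKM in replicates 2 and 4. The summed oligodendrocyte genes had it too, with 4868 and 5183 FPKM in replicates 1 and 3 and 6132 and 5655 FPKM in replicates 2 and 4, and the part of either in these values was not tested. This order was looked at after the values were seen.

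Between neighbours in the order of levels, 5 of 8 did not overlap in their ranges over the 4 libraries. Mlc1 exceeded Aqp4 by 1.10 ± 0.36, Aldh1l1 exceeded Dtna by 0.85 ± 0.19, Dmd exceeded Utrn by 1.057 ± 0.22 and Utrn exceeded Sntb1 by 0.70 ± 0.18 on the log2(FPKM + 1) scale (SD, n = 4). Hepacam exceeded Aldh1l1 by 0.39 ± 0.26, with ranges that did not overlap by a narrow margin, 24.8 FPKM at the lowest for Hepacam and 24.5 FPKM at the highest for Aldh1l1. Aqp4 and Hepacam, Dtna and Dag1, and Dag1 and Dmd overlapped.

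The first comparison asked which of the genes lay above 1 FPKM, a common level for calling a transcript present. Of the 9 genes, 8 lay above 1 FPKM, none below it, and Sntb1 passed in neither direction (limma moderated test of log2(FPKM + 1), Benjamini-Hochberg adjusted over 25206 genes). Of all genes tested, 47.7% lay above and 40.1% below. Utrn lay 0.93 ± 0.10 (SE) above (adjusted p = 0.000454) and Mlc1, at the other end, 5.24 ± 0.09 (adjusted p = 2.83e-07). Sntb1 lay 0.24 ± 0.14 above in 3 of 4 libraries (adjusted p = 0.175). With each library rescaled to a fixed sum of 1000000, which moved the median gene by 0.74 on the log2 scale, Sntb1 lay 0.96 above (adjusted p = 0.00526).

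The second comparison set the 9 genes against the endothelial genes of the same libraries, since the labels name endothelial cells. The genes of endfoot membrane proteins stood several-fold above the median of the 17 pan-endothelial genes, which was 4.49 ± 0.760 FPKM, and the 2 lowest members stood below it. Within each library Mlc1 was 17.4 ± 4.92 times that median, Aqp4 7.77 ± 0.622 times, Hepacam 6.13 ± 0.731 times and Aldh1l1 4.68 ± 0.950 times (SD, n = 4 each). Dtna was 2.47 ± 0.381 times it, Dag1 1.99 ± 0.578 times and Dmd 1.57 ± 0.186 times. Utrn, at 0.640 ± 0.122 times, and Sntb1, at 0.314 ± 0.110 times, were below it in 4 of 4 libraries. Of the 17 pan-endothelial genes, 8 lay above their own list median, 7 below it and 2 in neither direction by the same limma test. The means of Ly6c1, Ly6a and Ramp2, at 68.2, 49.5 and 41.8 FPKM, were above that of Aqp4, at 34.7 FPKM. Mlc1, at 75.3 FPKM, was above all 17.

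By the test, 7 of the 9 genes lay above the pan-endothelial median, where 30.6% of all genes tested did, and 2 lay below it, where 60.7% did (limma, adjusted over 25206 genes). On the log2(FPKM + 1) scale the differences ranged from 3.80 ± 0.38 (SD, n = 4) for Mlc1 to -1.21 ± 0.31 for Sntb1. Aqp4 differed by 2.70 ± 0.11, the steadiest of the 9, and Utrn by -0.52 ± 0.20. The prior degrees of freedom of this fit were infinite, so the ordinary variance of each gene was used as well. It also placed 7 members above and 2 below, against 28.7% and 58.4% of all genes tested, with adjusted p from 0.000794 for Aqp4 and Hepacam to 0.0321 for Dag1. Against the list mean in place of its median, Dag1 lay 0.27 higher (adjusted p = 0.0908) and Dmd at -0.0067 (adjusted p = 0.959), so for these 2 the call depends on how the endothelial list is summarised.

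**Figure D2:**
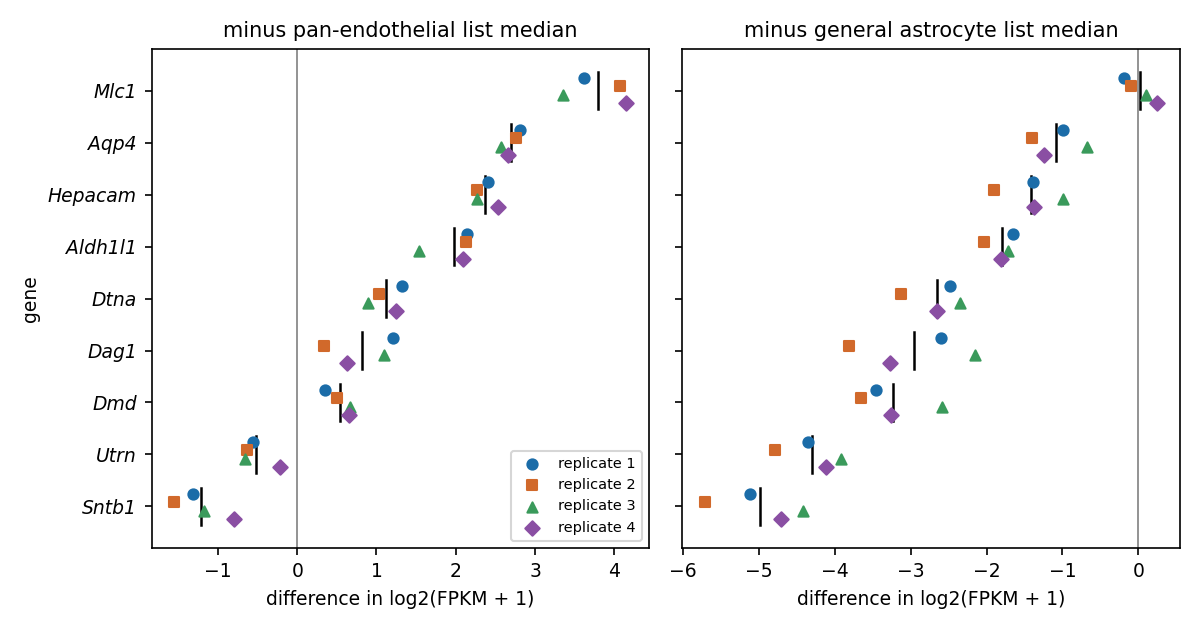
Difference in log2(FPKM + 1) between each gene and the median of the pan-endothelial list (left) or of the general astrocyte list (right) in the same library; points are replicates 1 to 4 and bars their mean. All points of Mlc1 down to Dmd lie right of 0 on the left panel, and only Mlc1 reaches 0 on the right panel.

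The third comparison set the 9 genes against other astrocyte genes of the same libraries, none of which is a member. Mlc1 stood at the level of the median of the general astrocyte genes and the other 8 stood below that median. The means of the 11 astrocyte genes ran from 12.3 FPKM for Slc4a4 to 544 FPKM for Ndrg2. The means of Mlc1, Aqp4, Hepacam and Aldh1l1 were inside that range. Of the 11, 5 lay below their own list median by the same limma test. The median of the 11 general astrocyte genes was 75.0 ± 15.7 FPKM. Mlc1 was 1.02 ± 0.139 times that median (SD, n = 4), higher in 2 of 4 libraries, a difference of 0.02 ± 0.19 that did not pass (limma, adjusted p = 0.919). Its ratio was below 1 in replicates 1 and 2 and above 1 in replicates 3 and 4.

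Of the 9 genes, none lay above the astrocyte median, where 3.25% of all genes tested did, and 8 lay below it, where 94.6% did, so the members' share below was close to the share of all genes. At an unadjusted p under 0.05, and with the ordinary variance, the count above was 0 as well. Aqp4 was 0.475 ± 0.108 times the median, Hepacam 0.377 ± 0.0961 times and Aldh1l1 0.278 ± 0.0311 times. Dtna was 0.150 ± 0.0337 times, Dag1 0.129 ± 0.0674 times and Dmd 0.0983 ± 0.0374 times it. Utrn and Sntb1 were the farthest, at 0.0392 ± 0.0104 and 0.0199 ± 0.00938 times. With the ordinary variance 8 lay below too, against 94.1% of all genes tested and 2.88% above, with adjusted p from 0.000349 for Utrn to 0.00676 for Aqp4.

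Pairs of partners and relatives were then compared per length within each library (see the plot of differences within pairs). Across 8 pairs, the exact 2-sided sign-flip test has a smallest p of 0.125, which 5 pairs reached, with an adjusted p of 0.2 over the 8 pairs, so none could pass 0.05. The size and the number of libraries in each direction are given instead.

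Aqp4 was 1.70 ± 0.275 times Aldh1l1 (SD, n = 4), higher in 4 of 4 libraries, a difference of 0.72 ± 0.21 on the log2(FPKM + 1) scale. It was 4.33 ± 1.22 times Kcnj10, the gene of the potassium channel that shares the endfoot membrane with it. Kcnj10 had 9.07, 5.89, 9.48 and 8.81 FPKM in replicates 1 to 4. The ratio of Aqp4 to Kcnj10 was highest in replicate 2, where Kcnj10 was lowest, and lowest in replicate 4, where Aqp4 was lowest.

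Sntb1 was set against Sntb2, the other beta-syntrophin gene. Sntb2 lay between 1.14 and 1.51 FPKM in the 4 libraries, inside the range of Sntb1. The difference of 0.07 ± 0.23 on the log2(FPKM + 1) scale was in favour of Sntb1 in 3 of 4 libraries (exact sign-flip p = 0.5, also adjusted over the 8 pairs).

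The ranges of Dtna and of Dtnb, the gene of beta-dystrobrevin, which is known from neurons, overlapped. Dtnb had 12.6, 19.6, 19.5 and 15.5 FPKM in replicates 1 to 4, and Dtna was lower in replicates 2, 3 and 4 and slightly higher in replicate 1. The difference was -0.56 ± 0.44 on the log2(FPKM + 1) scale (exact sign-flip p = 0.25, adjusted p = 0.333).

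For dystroglycan and its cytoskeletal partners, Dag1 was 3.20 ± 1.14 times Utrn, higher in 4 of 4 libraries, a difference of 1.34 ± 0.49. Dag1 and Dmd could not be ordered: Dag1 was 1.94 and 1.39 times Dmd in replicates 1 and 3, and 0.882 and 0.986 times Dmd in replicates 2 and 4 (exact sign-flip p = 0.5). Utrn was below Dmd in every library, by -1.057 ± 0.22. Both have long transcripts, of at most 12382 bases for Utrn and 14910 bases for Dmd.

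**Figure D3:**
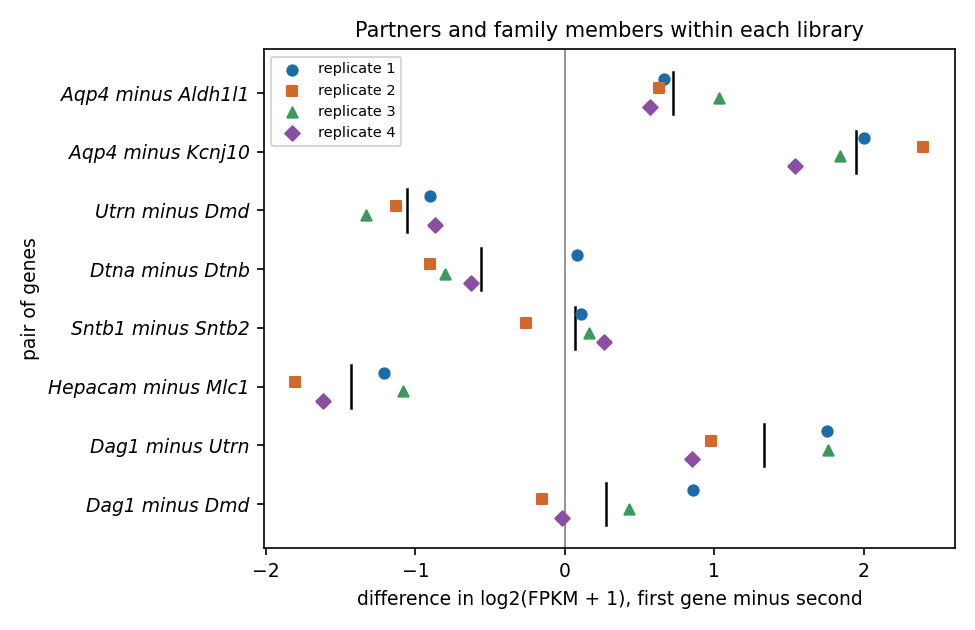
Difference in log2(FPKM + 1) within each library for 8 pairs of genes, first gene minus second; points are replicates 1 to 4 and bars their mean. For 5 pairs all 4 points lie on 1 side of 0; Dtna minus Dtnb, Sntb1 minus Sntb2 and Dag1 minus Dmd cross it.

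The remaining genes of the complex varied widely (see the plot of gene lists). Of the 6 other genes of dystrophin-related proteins, dystrobrevins and syntrophins, 4 lay above 1 FPKM and 2 passed in neither direction. Against the pan-endothelial median 2 lay above, 3 below and 1 in neither, which is near the 30.6% above and 60.7% below among all genes tested. Dtnb was the highest at 16.8 ± 3.38 FPKM, and Sntg1, a gamma-syntrophin gene, had 3.93 ± 0.996 FPKM (SD, n = 4). Sntg2, the other gamma-syntrophin gene, was the lowest at 1.062 ± 0.748 FPKM.

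Sarcoglycans and sarcospan form a membrane subcomplex beside dystroglycan that is best known from muscle. Of the 6 such genes tested, 3 lay above 1 FPKM, 2 below it and 1 in neither direction, shares near the 47.7% above and 40.1% below among all genes tested. Sgce, the epsilon form found widely in brain, had 21.8 ± 2.59 FPKM and Sgcb 17.8 ± 2.05 FPKM, both above the pan-endothelial median by the same limma test, with differences of 2.06 ± 0.31 and 1.78 ± 0.27 (SD, n = 4). Sspn, the sarcospan gene, had 7.92, 5.11, 4.55 and 4.73 FPKM in replicates 1 to 4, highest in replicate 1. Sgca, the muscle form, had 0.621, 0, 0.0282 and 0 FPKM.

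Dystroglycan binds its ligands through a sugar chain that a series of enzymes builds. All 15 genes listed here for this pathway, a chosen list, lay above 1 FPKM, where 47.7% of all genes tested did. Against the pan-endothelial median 11 lay above, 2 below and 2 in neither direction. Of all genes tested, 30.6% lay above that median and 60.7% below it. The list median was 11.5 ± 0.859 FPKM, against 1.43 ± 0.107 FPKM for all genes tested. B4gat1, a glucuronyltransferase gene of the chain, was highest at 55.4 ± 3.74 FPKM, followed by the dolichol-phosphate mannose synthase genes Dpm2, at 47.1 ± 8.33 FPKM, and Dpm3, at 39.0 ± 6.20 FPKM. Pomt2, which encodes part of the enzyme that adds the first mannose, was lowest at 2.89 ± 0.697 FPKM.

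Of 9 genes of dystroglycan ligands, 4 lay above 1 FPKM, 2 below it and 3 in neither direction, and the share above was near the 47.7% of all genes tested. Among neurexin genes, whose proteins are presynaptic, Nrxn3 had 12.6 ± 3.51 FPKM and Nrxn2 6.28 ± 2.59 FPKM (SD, n = 4). Agrn, the gene of agrin in basement membranes, had 4.06, 4.22, 7.09 and 8.59 FPKM in replicates 1 to 4, and replicates 3 and 4 were the higher. Lama2, a laminin chain gene of the astrocyte-facing basement membrane, had 0.969 ± 0.0986 FPKM and passed in neither direction (limma, adjusted p = 0.816). Lama1 and Hspg2, the perlecan gene, lay below 1 FPKM at 0.149 ± 0.137 and 0.159 ± 0.0913 FPKM (limma, adjusted p = 0.000149 and 4.63e-05). Nrxn2 had the order of Dag1 over the libraries, at 7.59 and 9.28 FPKM in replicates 1 and 3 and 3.94 and 4.29 FPKM in replicates 2 and 4.

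The 9 genes described had a median of 11.4 ± 1.86 FPKM, against 75.3 ± 5.10 FPKM for 8 other genes of endfoot membrane proteins. All 8 of these other genes lay above 1 FPKM, where 47.7% of all genes tested did. Against the pan-endothelial median 7 lay above and 1 below, where 30.6% and 60.7% of all genes tested did. Against the general astrocyte median 3 lay above, 3 below and 2 in neither direction. Of all genes tested, 3.25% lay above the astrocyte median and 94.6% below it. Gja1, the main astrocyte connexin gene, had 113 ± 8.31 FPKM, and Gpr37l1, an astrocyte receptor gene, 106 ± 8.62 FPKM. Trpv4, a cation channel gene, was lowest at 2.72 ± 0.686 FPKM. Clcn2, whose chloride channel also binds GlialCAM, had 11.3, 9.32, 12.9 and 10.2 FPKM in replicates 1 to 4, below Hepacam in each.

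**Figure D4:**
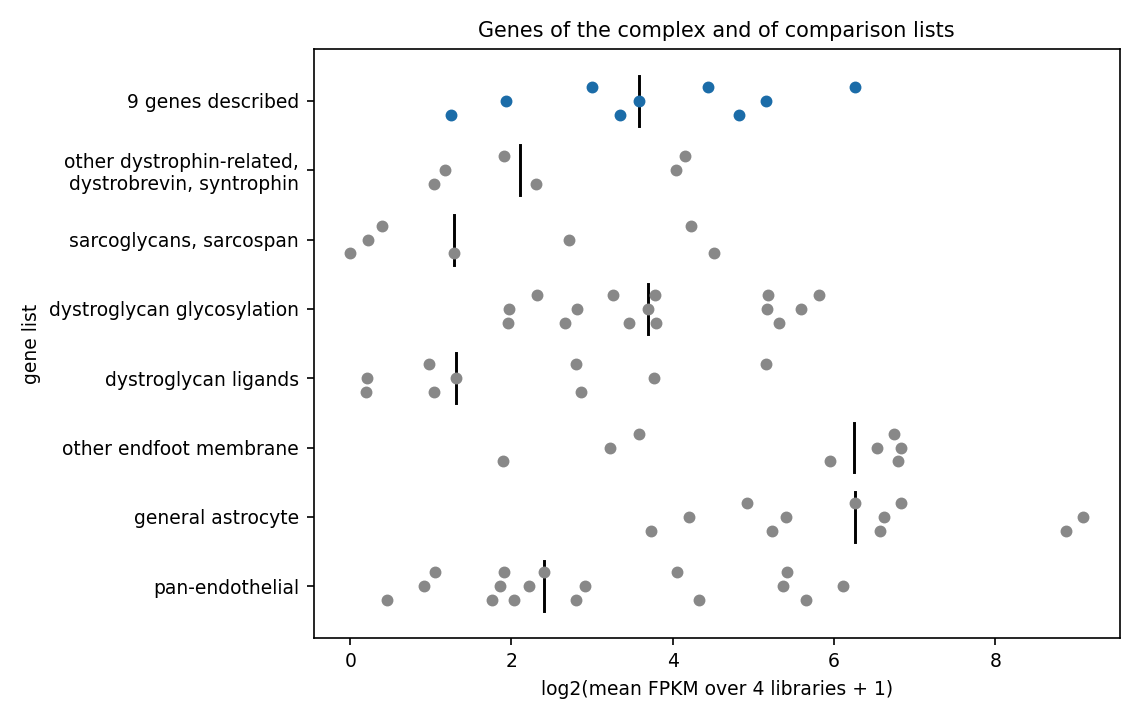
Mean level over 4 libraries as log2(mean FPKM + 1) of each gene in the set described and in 7 other lists; each point is a gene, shifted up or down only for legibility, and bars are list medians of these means. The 9 genes described span from Sntb1 at 1.38 FPKM to Mlc1 at 75.3 FPKM, and the other endfoot membrane genes mostly lie to their right.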

How the data were processed

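The authors deposited 1 table of FPKM with 1 column for each library; 0 other columns were left out. Build GRCm38 and the tools StringTie 2.2.1, HISAT2 2.2.1, bcl2fastq 2.20 and SAMtools appear in the submitters' processing notes without their roles. The annotation, filters, strand setting and handling of multiply mapped reads are not stated there. Since FPKM scales by library total and transcript length, very high genes depress the rest, and loss of long transcripts depresses long genes. Read depth is unknown and no counting interval is given.

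Positions came from GENCODE M21 (GRCm38). Members and the 12 other gene lists were chosen with earlier results of these data known. Values were analysed as log2(FPKM + 1), so differences of low genes are understated. limma 3.58.1 in R 4.3.3, with a mean-variance trend, tested 25206 genes above 0 in any library against 1 FPKM and, within library, against 2 list medians, with a 2-sided threshold of 0.05 after Benjamini-Hochberg adjustment. The test against a fixed level was tried on simulated data, and the tests against list medians were not. In the within-library fits the prior degrees of freedom were infinite, hence the ordinary variance as an alternative chosen after seeing the data. Pairs used exact sign-flip tests over 16 patterns. Named genes were the 9 members, pair genes, the 3 highest and the lowest of each list and those nearest Aqp4; of the cell type lists few are named, some genes and 1 pair are not reported here, and Cdh5, Cldn5, Sgca, Agrn, Lama2, Hspg2 and Clcn2 were added after their values were seen. Alternatives covered the pseudocount, filters, scaling, variance, list mean and each library left out. Figures were drawn with matplotlib 3.10.9.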

Additional observations from a re-analysis of the deposited data

Results flagged for a closer look

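Among 62 values checked for a library far from the other 3, 2 were found, and chance gives about 1 in 20. Gpr37l1, an astrocyte receptor gene, had 100, 119, 103 and 103 FPKM in replicates 1 to 4, and the gap of replicate 2 to the nearest other library was 0.835 of the range. Sspn, the sarcospan gene, had 7.92, 5.11, 4.55 and 4.73 FPKM, with replicate 1 apart, at 0.832 of the range. None of the 9 genes described, and none of the 8 pair differences, was among them.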

How the results depend on the processing

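Of 288 recomputed differences of the 9 genes from 1 FPKM or from a list median, 283 kept their direction and side of the threshold. When the mean of the pan-endothelial list replaced its median, Dmd lay at -0.0067 and Dag1 at 0.27 without passing; the list mean lies above its median. Mlc1, which did not differ from the general astrocyte median, ranged from -0.060 to 0.084 with each library left out, changing sign without replicates 3 (-0.0097) and 4. Sntb1 passed 1 FPKM after rescaling to a fixed sum, by 0.96, which by construction raises every value. All 48 recomputed pair differences, over the pseudocount, the scaling and each library left out, moved by less than the spread. The counts of members above or below each level stayed within 1.5-fold under all alternatives. No paired analysis was possible because the series has 1 group. Unknown depth limits what can be said of genes near or under 1 FPKM, such as Sntb1, Sntb2 and Lama2.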
